A study of Mus musculus with 6 samples.

Results

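The EGF receptor family of mouse keratinocytes was followed here as 9 genes of 52550 in the deposited gene table: the receptors Egfr, Erbb2 and Erbb3, the ligands Epgn, Tgfa, Areg, Ereg and Btc, and the intracellular inhibitor Errfi1. They were chosen by symbol from a list of 10. Hbegf, also on the list, was not analysed here. Messenger RNA had been sequenced from 3 libraries of keratinocytes given recombinant IL-33 for 12 h and 3 libraries of untreated keratinocytes. All cells came from the epidermis of wild-type C57BL/6 mice 0 to 2 days old and had been grown for 2 days. Neither the dose of IL-33 nor whether the libraries of a group were separate cultures or animals is given in the sources used here, so p-values here reflect variation among libraries alone, and that variation may be technical. The design asks which keratinocyte transcripts differ after exposure to IL-33, an alarmin cytokine.

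Receptors of the family are tyrosine kinases that signal as pairs. EGFR binds the ligands studied here, ERBB2 binds none and serves as a partner, and ERBB3 has a weak kinase and depends on its partner. The ligands are made as membrane proteins and are released by metalloproteases, and many epithelial cells respond to ligands that they make themselves. In the epidermis the pathway is known for driving keratinocyte proliferation and migration in wound repair, and ERRFI1 (also called MIG6) binds the active kinase and restrains it, while its own gene is induced by the pathway.

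Of the 9 genes, 7 had a lower mean level with IL-33 and 2 a higher one, and none passed the test. The differences ran from a log2 fold change of -0.86 for Ereg to 0.07 for Erbb3 (IL-33 minus untreated), with a median of -0.18, against 0.00 over all 15778 tested genes. Log2 fold changes come from edgeR's quasi-likelihood test over all tested genes, with p-values adjusted by the Benjamini-Hochberg method and a threshold of 0.05. That test called 11 genes, or 0.0697% of those tested (0.0254% lower and 0.0444% higher with IL-33). A log2 fold change below 0 was found for 49.5% of all tested genes. At an unadjusted p under 0.05, Egfr, Erbb2, Ereg and Epgn stood lower (4 of 9), where 3.31% of all tested genes did so and 6.74% passed in either direction. The 9 genes were chosen with earlier results of these data known, so these shares describe them and do not test them. The count of 4 depended on the libraries. With 1 library left out at a time it ran from 0 without untreated replicate 3 to 4 without untreated replicate 1. In the latter fit Areg took the place of Epgn. Epgn had no such p with any 1 library left out (edgeR, unadjusted p = 0.0515 to 0.116). Nor did it with DESeq2 (unadjusted p = 0.0578) or in edgeR with upper quartile scaling (0.0591) or a replicate block (0.078). Leaving out untreated replicate 2 left Erbb2 alone. Of the IL-33 libraries, dropping replicate 1 left Erbb2 and added Areg, dropping replicate 2 left Egfr, and dropping replicate 3 left Ereg. With untreated replicate 1 and IL-33 replicate 3 both dropped, a choice made after seeing the data, Ereg alone had such a p.

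The libraries held 34188173 to 44255925 deposited counts with IL-33 and 41456441 to 45266298 untreated. An excess of transcript counts at 4 was read as about 4 deposited counts for 1 sequenced fragment, a scale inferred from the values and not given by the authors. On that assumption a floor of 3 fragments is 12 deposited counts, or 0.265 to 0.351 CPM (the deposited counts scaled to library size). The basal keratinocyte markers Krt14, Trp63 and Itga6 summed to 14770 to 15857 CPM with IL-33 and 14810 to 15528 CPM untreated. Krt14 made up most of each sum. Trp63 stood at 361 to 367 CPM with IL-33 and 362 to 369 CPM untreated. Itga6 stood at 322 to 455 CPM with IL-33 and 368 to 406 CPM untreated. The 4 melanocyte markers, all above the floor in every library, summed to 742 to 810 CPM with IL-33 and 758 to 794 CPM untreated, so the cultures held melanocyte RNA. Fibroblast markers, 6 of 7 above the floor in every library, summed to 29.3 to 33.9 CPM with IL-33 and 32.1 to 40.6 CPM untreated. Suprabasal markers (Krt10, Lor, Flg and Ivl) summed to 11.9 to 14.2 CPM with IL-33 and 15.3 to 15.8 CPM untreated. These last sums did not overlap, but Krt10, Lor and Flg each overlapped between the groups. Ivl did not, at 4.41, 2.94 and 4.85 CPM with IL-33 and 5.12, 6.09 and 5.96 CPM untreated. That order was found in 6.26% of all tested genes. The part of suprabasal RNA in any difference below was not tested. Of 5 immune markers Cd3e, Cd207 and Trdc were at 0 in every library and none was above the floor in all, with sums of 0.364 to 3.10 CPM with IL-33 and 0 to 0.76 CPM untreated. Lyz2 had 130 deposited counts (2.94 CPM) in IL-33 replicate 3, against 0 to 34 in the other libraries. Ptprc had 7 counts in that library and 0 in the others. The part of immune RNA in the values of IL-33 replicate 3 was not tested. Endothelial markers summed to 16.1 to 16.7 CPM with IL-33 and 13.5 to 19.2 CPM untreated, with Emcn at 0, and the mast cell markers Cpa3 and Fcer1a were at 0 everywhere. In bulk RNA, fewer cells of a type and less RNA per cell cannot be told apart.

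The ligand genes Epgn, Ereg, Areg and Btc lie together on chromosome 5, within 376 kb (91027464 to 91402994, GRCm38). Sequences before the start sites of 4 genes are shown so that genes of different values can be set side by side: Areg and Epgn, ligands of this cluster with lower means after IL-33; Egfr, the receptor they act on, also with a lower mean; and Errfi1, with a slightly higher mean. Of these 4 genes only Epgn had groups that did not overlap. Each is the 250 bases before a RefSeq start on GRCm38.p6, read on the plus strand, which is that of all 4 genes, with capitals marking matches to the cyclic AMP response element TGACGTCA or the TATA box sequence TATAAA on either strand. The windows are chr5:91139349-91139598, chr5:91027267-91027516, chr11:16751953-16752202 and chr4:150854820-150855069.
Areg: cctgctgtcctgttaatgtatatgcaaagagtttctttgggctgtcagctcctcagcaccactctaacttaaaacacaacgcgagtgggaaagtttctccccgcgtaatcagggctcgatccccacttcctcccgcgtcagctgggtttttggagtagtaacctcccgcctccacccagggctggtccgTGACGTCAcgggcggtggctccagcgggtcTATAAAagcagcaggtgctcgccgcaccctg
Epgn: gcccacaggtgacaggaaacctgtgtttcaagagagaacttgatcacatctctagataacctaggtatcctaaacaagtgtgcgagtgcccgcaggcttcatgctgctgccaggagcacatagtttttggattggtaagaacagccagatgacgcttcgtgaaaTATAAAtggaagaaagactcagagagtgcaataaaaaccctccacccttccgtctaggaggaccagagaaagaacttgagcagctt
Egfr: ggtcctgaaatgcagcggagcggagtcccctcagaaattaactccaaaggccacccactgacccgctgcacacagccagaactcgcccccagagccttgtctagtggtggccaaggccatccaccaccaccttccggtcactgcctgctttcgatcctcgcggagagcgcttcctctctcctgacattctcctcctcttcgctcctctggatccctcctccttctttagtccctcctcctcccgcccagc
Errfi1: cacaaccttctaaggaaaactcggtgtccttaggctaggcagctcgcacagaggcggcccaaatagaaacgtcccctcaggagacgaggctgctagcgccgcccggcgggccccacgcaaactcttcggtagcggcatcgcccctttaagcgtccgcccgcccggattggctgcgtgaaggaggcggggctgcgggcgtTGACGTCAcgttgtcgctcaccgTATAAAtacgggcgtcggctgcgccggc

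TGACGTCA occurred in the Areg window, with its first base 61 bases before the start, and in the Errfi1 window shown, 51 bases before it. It was present in 1.55% of all 32851 promoter windows of this length. TATAAA began 31, 86 and 28 bases before the RefSeq start in the windows shown of Areg, Epgn and Errfi1. It was present in 12.4% of all windows. The GENCODE start of Epgn, 91027464, lies inside its window, and that of Errfi1, 150853919, lies before the window shown. Distances would differ from those starts. RefSeq windows of the family numbered 8, for 7 of the 9 genes, Errfi1 having 2 starts. Of these 8, 2 held TGACGTCA and 3 held TATAAA. The other Errfi1 window (chr4:150853546-150853795) held neither. None of the 8 contained a match to TGANTCA, the AP-1 site, or to the NF-kB consensus, which 6.75% and 3.90% of all windows held. The 4 motifs were searched on both strands, and a match describes letters only, not use of the site.

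Levels can be compared between genes per length, in FPKM (fragments normalised to gene length and library depth). The order was Errfi1, Epgn, Egfr, Erbb2, Erbb3, Tgfa, Areg, Ereg and Btc. Over the 6 libraries Errfi1 ranged from 28.9 to 32.9 FPKM, a level above 92.9% of the genes with any signal, and Epgn from 13.7 to 16.0 FPKM. Egfr at 10.1 to 13.3 FPKM overlapped Erbb2 at 9.43 to 11.8 FPKM, and Erbb3 stood below them at 7.03 to 8.25 FPKM. Tgfa ran from 1.03 to 6.87 FPKM and overlapped Areg at 0.569 to 1.53 FPKM, which overlapped Ereg at 0.331 to 1.11 FPKM. Btc was last at 0.0234 to 0.176 FPKM.

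The receptors Egfr and Erbb2 had lower means with IL-33, folds of 0.883 and 0.88, and Erbb3 had a slightly higher one, a fold of 1.05. Egfr (ENSMUSG00000020122.16, chromosome 11, 16752203 to 16918158, plus strand) stood at 139, 154 and 128 CPM with IL-33, against 150, 159 and 167 CPM untreated. IL-33 replicate 2 lay between untreated replicates 1 and 2, so the groups overlapped. The log2 fold change was -0.18 (SE 0.071, 95% interval -0.34 to -0.02, edgeR adjusted p = 0.74). Erbb2 (ENSMUSG00000062312.5, chromosome 11, 98412470 to 98437716, plus strand) stood at 56.3, 54.8 and 54.8 CPM with IL-33 and at 62.1, 58.4 and 68.0 CPM untreated. All IL-33 libraries were below all untreated ones, as in 6.26% of all tested genes (7.39% had the opposite order), with a log2 fold change of -0.18 (SE 0.07, interval -0.34 to -0.03, edgeR adjusted p = 0.74). Erbb3 (ENSMUSG00000018166.8, chromosome 10, 128567523 to 128589652, minus strand) stood at 46.9, 55.2 and 53.3 CPM with IL-33, against 49.4, 52.1 and 47.0 CPM untreated. Its groups overlapped throughout, with a log2 fold change of 0.07 (interval -0.11 to 0.24, edgeR adjusted p = 0.911). Erbb3 is also known as a gene of melanocytes, and the part of melanocyte RNA in its level was not tested.

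Summed over the 3 receptors, the level was 27.8, 29.9 and 27.5 FPKM with IL-33 and 30.0, 30.4 and 32.1 FPKM untreated. The groups did not overlap, with IL-33 replicate 2 and untreated replicate 1 almost touching, and they did overlap when CPM were summed in place of FPKM (difference -0.13 on the log2 scale, exact permutation p = 0.2). The mean difference was -0.12 on the log2 scale (exact two-sided permutation test, p = 0.1, adjusted 0.2 over 2 sums). With 3 libraries against 3, 0.1 is the smallest p that test can give. Within the sum, Erbb3 took 25.3% to 28.9% with IL-33 and 21.9% to 25.5% untreated, and Egfr took 36.8% to 40.8% with IL-33 and 39.6% to 41.5% untreated.

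**Figure D1:**
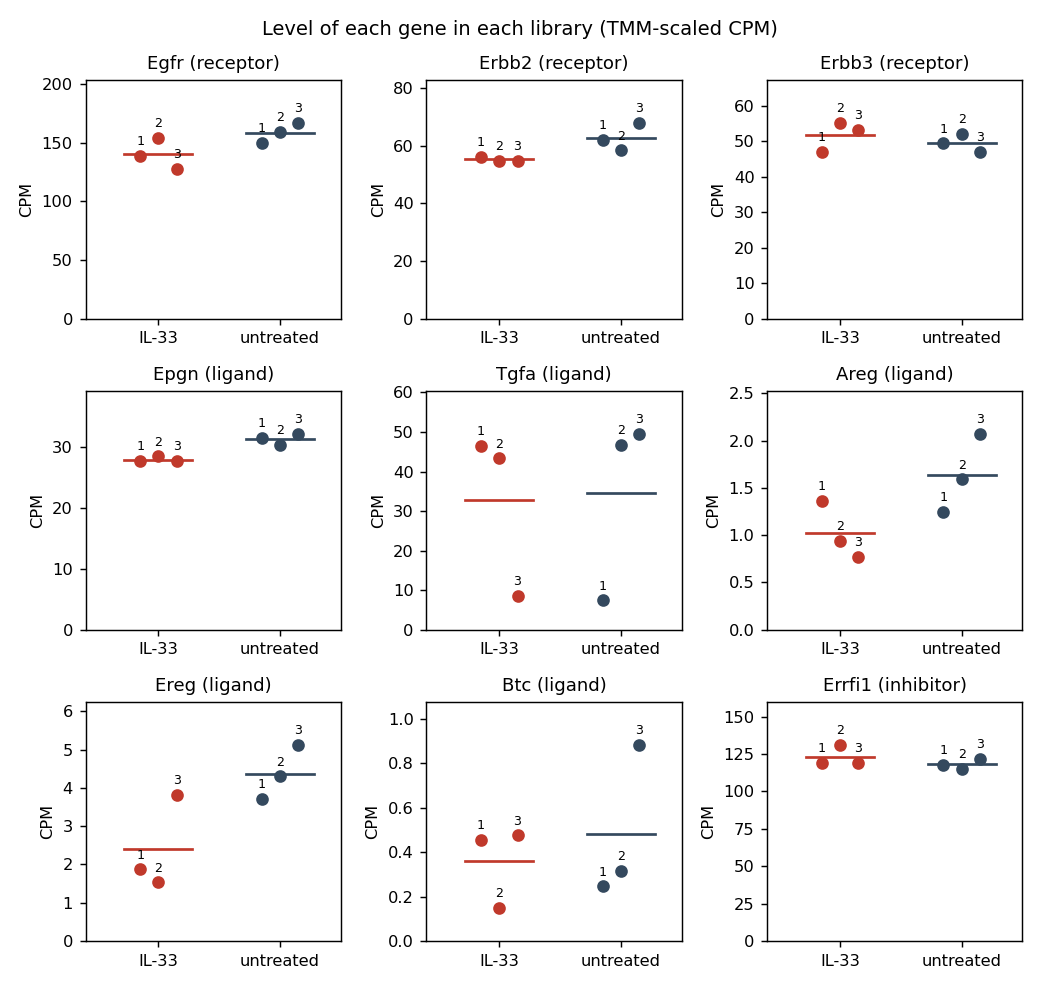
Level of each gene in CPM (vertical axes, from 0) in the 3 IL-33 libraries (red, left) and the 3 untreated libraries (blue, right). Numbers are replicates and bars are means. Erbb2 and Epgn are the 2 of 9 genes whose groups do not overlap, where 13.7% of all tested genes had no overlap in either direction. Tgfa is low in IL-33 replicate 3 (8.54 CPM) and untreated replicate 1 (7.42 CPM).

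Among the ligands, Epgn gave the steadiest values and Ereg the largest fold change. Epgn (epigen; ENSMUSG00000035020.11, chromosome 5, 91027464 to 91035215) stood at 27.7, 28.5 and 27.7 CPM with IL-33, against 31.6, 30.4 and 32.2 CPM untreated. All IL-33 libraries lay below all untreated ones, as in 6.26% of all tested genes. The ratio of highest to lowest library was 1.03 with IL-33 and 1.06 untreated. The log2 fold change was -0.17 (SE 0.074, interval -0.33 to -0.00084, edgeR adjusted p = 0.74).

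Ereg (epiregulin, which binds EGFR and ERBB4; ENSMUSG00000029377.5, chromosome 5, 91074622 to 91093646) stood at 1.87, 1.53 and 3.81 CPM with IL-33 and at 3.71, 4.30 and 5.12 CPM untreated. IL-33 replicates 1 and 2 were far below every untreated library, and IL-33 replicate 3 was above untreated replicate 1. The mean was 2.40 ± 1.23 CPM with IL-33 and 4.38 ± 0.708 CPM untreated (SD, n = 3 each), a fold of 0.551 and a log2 fold change of -0.86 (SE 0.33, interval -1.61 to -0.11, edgeR adjusted p = 0.74). Without IL-33 replicate 3 the log2 fold change was -1.36 and the edgeR adjusted p 0.0663, the lowest of the 9 genes under any setting, in a range up to 0.958.

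Areg (amphiregulin, a low-affinity EGFR ligand; ENSMUSG00000029378.5, chromosome 5, 91139599 to 91148432) stood at 1.36, 0.939 and 0.77 CPM with IL-33, against 1.25, 1.59 and 2.07 CPM untreated. Only IL-33 replicate 1 reached into the untreated range, above untreated replicate 1. These are 32 to 60 deposited counts with IL-33 and 56 to 94 untreated, low numbers for a single library. The log2 fold change was -0.68 (SE 0.35, interval -1.45 to 0.1, edgeR adjusted p = 0.763).

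Tgfa (transforming growth factor alpha, an EGFR ligand; ENSMUSG00000029999.14, chromosome 6, 86195223 to 86275719) stood at 46.5, 43.3 and 8.54 CPM with IL-33, and at 7.42, 46.7 and 49.5 CPM untreated. In each group 1 library was over 5 times lower than the other two, IL-33 replicate 3 and untreated replicate 1. The ratio of highest to lowest was 5.45 with IL-33 and 6.67 untreated, and 13 of 9315 genes at a mean of 10 CPM or more had a ratio of 4 or more in both groups. The test therefore says little of Tgfa: the log2 fold change was -0.08 with an interval of -2.84 to 2.69 (edgeR adjusted p = 0.992). Without those 2 libraries, a choice made after seeing the data, it was -0.10 (adjusted p = 0.877).

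Btc (betacellulin, which binds EGFR and ERBB4; ENSMUSG00000082361.6, chromosome 5, 91357261 to 91402994) was near the floor, at 20, 5 and 21 deposited counts with IL-33 and 11, 13 and 40 untreated. It was at or under the floor in 2 of 6 libraries, and a difference was not detectable at this depth (the interval ran from -1.96 to 1.15 on the log2 scale, edgeR adjusted p = 0.941).

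**Figure D2:**
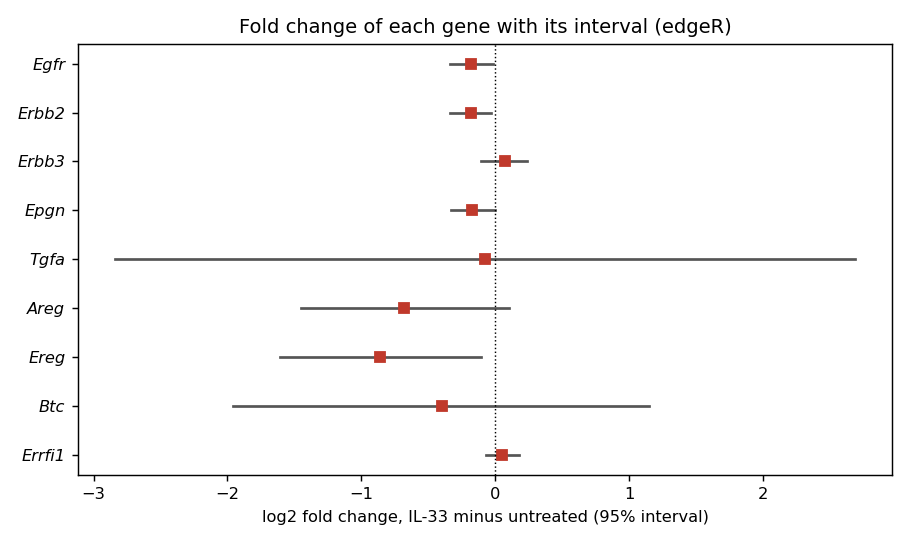
Log2 fold change of each gene (squares, IL-33 minus untreated, horizontal axis) with its approximate 95% interval (lines), derived from the edgeR test. Intervals are narrow for Egfr, Erbb2, Erbb3, Epgn and Errfi1 and widest for Tgfa, from -2.84 to 2.69.

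Together the 5 ligands summed to 21.8, 21.2 and 16.4 FPKM with IL-33, against 18.6, 23.7 and 25.7 FPKM untreated, and the groups overlapped (difference -0.19 on the log2 scale, exact permutation p = 0.4, adjusted 0.4 over 2 sums). Dropping IL-33 replicate 3 gave a difference of -0.06, dropping untreated replicate 1 gave -0.33 and dropping untreated replicate 3 gave -0.09. The libraries with the lowest sum in each group were those with low Tgfa. Left out of the sum, Tgfa left 15.3, 15.2 and 15.2 FPKM with IL-33 and 17.5, 17.2 and 18.8 FPKM untreated. These sums did not overlap (difference -0.23 on the log2 scale, exact permutation p = 0.1, the smallest possible; chosen after seeing the data). Epgn alone stood at 13.8, 14.2 and 13.7 FPKM with IL-33 and 15.8, 15.1 and 16.0 FPKM untreated. The sums without Tgfa therefore mostly repeat the values of Epgn, and Hbegf is in none of the sums.

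Epgn made up most of the ligand FPKM in every library, 63.5%, 66.8% and 83.8% with IL-33 and 84.9%, 63.6% and 62.3% untreated. Areg took 4.63%, 3.28% and 3.47% with IL-33 and 4.99%, 4.95% and 5.95% untreated. The shares of Areg did not overlap, a mean difference of -1.51 percentage points (exact permutation p = 0.1, adjusted 0.5 over 5 ligands). With Tgfa left out of the sum, a choice made after seeing the data, the shares of Areg overlapped (difference -1.77 percentage points, exact permutation p = 0.2). For Ereg the shares were 1.86%, 1.56% and 5.02% with IL-33, and 4.35%, 3.94% and 4.34% untreated, so that IL-33 replicate 3 was the highest of all (exact permutation p = 0.4, adjusted 0.833).

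**Figure D3:**
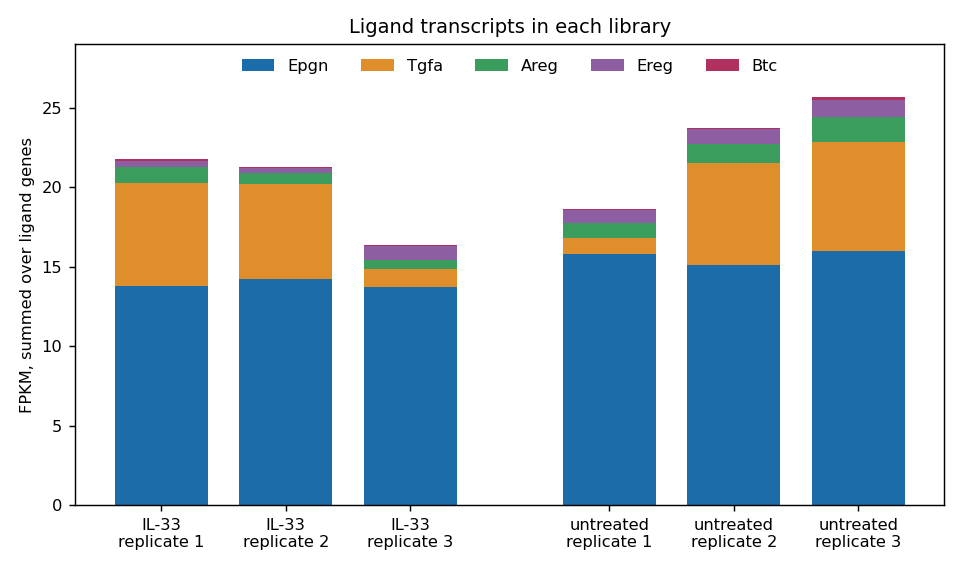
FPKM of each ligand gene stacked by library (vertical axis from 0), the 3 IL-33 libraries on the left and the 3 untreated libraries on the right. Epgn is the largest block in every bar, and the sums of 16.4 and 18.6 FPKM are those of the libraries with little Tgfa.

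The inhibitor Errfi1 (ENSMUSG00000028967.10, chromosome 4, 150853919 to 150868892) stood at 119, 131 and 119 CPM with IL-33, against 118, 115 and 122 CPM untreated. The groups overlapped and the interval was narrow, with a log2 fold change of 0.05 (SE 0.055, interval -0.07 to 0.18, edgeR adjusted p = 0.89).

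The transcript table divides each gene over annotated transcripts. The 9 genes had 24 transcripts there, 4 of them at 0 in every library, and 16 passed the filter on low counts. None was called by edgeR and none had an unadjusted p under 0.05, against 0.0299% called and 4.24% under 0.05 among all 40163 tested transcripts. Areg, Ereg and Erbb3 had 1 transcript each. The full-length Egfr-201 took 91.6% of the FPKM of Egfr, Epgn-201 94.7% and Tgfa-201 98.2%. Epgn-202, a shorter coding form, took 5.33%. Btc was split between the coding Btc-201 (49.7%) and Btc-204 (50.3%), annotated as a retained intron, on the few counts given above. Btc-204 held 100%, 27.0% and 87.9% with IL-33 and 100%, 100% and 0% untreated, and Btc-201 held the rest.

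For Erbb2 the assignment to transcripts varied far more between libraries than the gene total, whose ratio of highest to lowest was 1.03 with IL-33 and 1.16 untreated. Erbb2-201, the coding transcript of 5012 bases, held 14.4%, 19.0% and 16.5% of the FPKM of the gene with IL-33, against 17.7%, 97.3% and 16.2% untreated. Erbb2-202, 4431 bases long and annotated as a processed transcript with no coding sequence, held 85.3%, 80.8% and 83.4% with IL-33 and 82.1%, 0.534% and 83.7% untreated. Untreated replicate 2 alone assigned nearly all signal to the coding form. The log2 fold change of Erbb2-201 was -1.44 (SE 0.7, edgeR adjusted p = 1). How much coding Erbb2 messenger RNA the cells held is therefore uncertain from these files. In Errfi1, Errfi1-201 took 91.2% of the FPKM over all libraries, and the short Errfi1-203 stood at 0.54, 12.7 and 0.0668 FPKM with IL-33 and 0.515, 0.15 and 0.509 FPKM untreated. IL-33 replicate 2 was the high one (edgeR adjusted p = 1). In Tgfa the 2 low libraries had 1.66 FPKM (IL-33 replicate 3) and 1.42 FPKM (untreated replicate 1) on Tgfa-201, against 8.61 to 9.84 FPKM in the other 4 libraries. The signal missing there was on no other annotated Tgfa transcript, and Gm43917, which overlaps Tgfa on the other strand, held 0 counts in both.

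**Figure D4:**
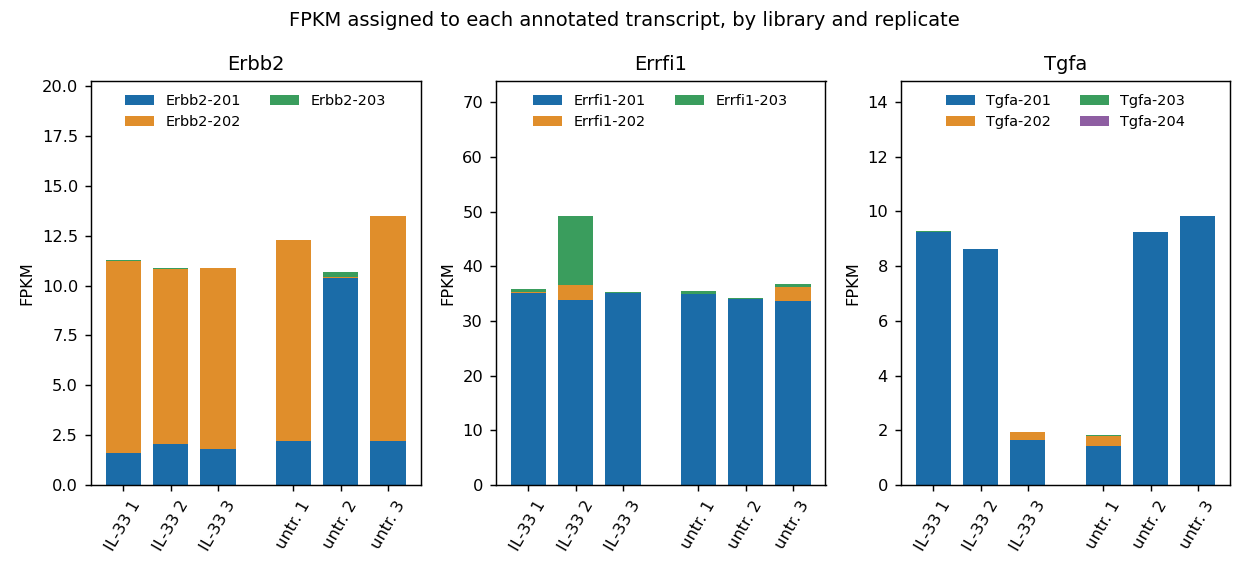
FPKM assigned to the annotated transcripts of Erbb2, Errfi1 and Tgfa (stacked bars, from 0) in each library, IL-33 left and untreated (untr.) right. Untreated replicate 2 differs in the form of Erbb2, IL-33 replicate 2 in Errfi1-203, and IL-33 replicate 3 and untreated replicate 1 in the total of Tgfa.

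Other genes of the family and the pathway were read in 6 lists, of which 61 genes were tested. None was called by edgeR over all genes, while 10 stood lower and 5 higher at an unadjusted p under 0.05, where 3.31% of all tested genes stood lower and 3.42% higher. The lists too were chosen with earlier results of these data known. Nrg1 encodes neuregulin, a ligand of ERBB3, and had the highest level per length of the ligand genes named here, at 18.8, 17.2 and 17.4 FPKM with IL-33, against 20.9, 20.1 and 21.0 FPKM untreated. All its IL-33 libraries lay below all untreated ones, as in 6.26% of all tested genes. Nrg1 stood at 216, 198 and 201 CPM with IL-33 and 241, 233 and 241 CPM untreated (log2 fold change -0.22, SE 0.046, edgeR adjusted p = 0.319, range 0.0503 to 0.776 over the settings). Nrg4 and Egf were low, Egf at or under the floor in 2 libraries, at 0.762 ± 0.227 and 0.362 ± 0.238 CPM with IL-33, and at 1.02 ± 0.0708 and 0.324 ± 0.0925 CPM untreated (SD, n = 3 each). The receptor gene Erbb4 had at most 8 deposited counts in any library, below the floor, and Nrg3 was at 0 in all 6, so neither was detectable at this depth.

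The lists between ligand and target genes had median log2 fold changes near 0. Ligand shedding genes (8 tested) had 5 log2 fold changes above 0 and a median of 0.01. Frmd8, which stabilises the sheddase ADAM17 complex, stood at 122 ± 2.32 CPM with IL-33 and 112 ± 1.92 CPM untreated, and the metalloproteases Adam9 and Adam15 at 97.4 ± 2.61 and 52.0 ± 1.59 CPM with IL-33, against 104 ± 6.20 and 48.6 ± 3.94 CPM untreated. Adaptors and the RAS-ERK core (14 tested) had 12 above 0 and a median of 0.04. The GTPase gene Hras stood at 129 ± 3.24 CPM with IL-33 and 118 ± 2.84 CPM untreated, the kinase Mapk3 (ERK1) at 73.1 ± 4.48 CPM with IL-33 and 64.7 ± 6.71 CPM untreated. In the PI3K, PLC and STAT branch (9 tested, 7 above 0, median 0.06), the PI3K regulatory subunit Pik3r2 stood at 83.1 ± 2.01 CPM with IL-33 and 69.4 ± 3.40 CPM untreated, without overlap (log2 fold change 0.26, edgeR adjusted p = 0.399). Akt2 and the catalytic subunit Pik3cb had log2 fold changes of 0.07 and 0.06. Genes of receptor turnover (10 tested, 6 above 0, median 0.02) included the ubiquitin ligase Rnf41, known for ERBB3 degradation, at 39.2 ± 4.42 CPM with IL-33 and 47.6 ± 4.91 CPM untreated. Ubash3b, a phosphatase that limits receptor degradation, stood at 7.17 ± 0.647 CPM with IL-33 and 5.61 ± 0.15 CPM untreated. Lrig3, of a family of transmembrane regulators of these receptors, stood at 39.3 ± 0.587 CPM with IL-33 and 43.3 ± 1.60 CPM untreated (SD, n = 3 each). All IL-33 libraries lay above all untreated ones for Frmd8, Hras, Pik3r2 and Ubash3b, and below them for Lrig3. Over all tested genes 7.39% lay above in this way and 6.26% below.

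Genes that ERK induces and its feedback inhibitors had a log2 fold change below 0 in 13 of 17 tested, with a median of -0.14, where 49.5% of all tested genes were below 0. At an unadjusted p under 0.05, 8 were lower and 1, Egr1, was higher, where 3.31% and 3.42% of all tested genes were. The list was chosen with earlier results of these data known, so these shares describe it and do not test it. Over the list, all IL-33 libraries lay below all untreated ones in 8 of 17 genes, where 6.26% of all tested genes did so. These were the same 8 that had an unadjusted p under 0.05. A low p with 3 libraries per group favours such an order, so the order adds no support. With 1 library left out at a time the count of lower genes at that p ran from 6 to 9. Epha2, an ephrin receptor, stood at 194, 172 and 174 CPM with IL-33, against 239, 236 and 217 CPM untreated (log2 fold change -0.36, SE 0.06, edgeR adjusted p = 0.139, range 0.000536 to 0.468). Ptgs2, the cyclooxygenase of prostaglandin synthesis, stood at 257, 247 and 291 CPM with IL-33 and at 341, 315 and 330 CPM untreated (log2 fold change -0.31, edgeR adjusted p = 0.307, range 0.00826 to 0.752). Neither passed in edgeR with all 6 libraries and the filter on low counts. DESeq2 called both (adjusted p = 0.000536 and 0.00909), where it called 0.463% of all tested genes. In edgeR, Epha2 passed with no filter (adjusted p = 0.0377) and without IL-33 replicate 1 (adjusted p = 0.0471). Ptgs2 passed in edgeR without IL-33 replicate 3 (adjusted p = 0.00826). Dusp5, an ERK phosphatase, stood at 53.6, 50.4 and 50.9 CPM with IL-33, against 60.2, 62.7 and 61.3 CPM untreated (log2 fold change -0.25, edgeR adjusted p = 0.464). The other 5 of the 8 were Etv5, Etv4, Dusp6, Plaur and Spred1, named after their values were seen, with log2 fold changes of -0.24, -0.23, -0.38, -0.22 and -0.14.

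**Figure D5:**
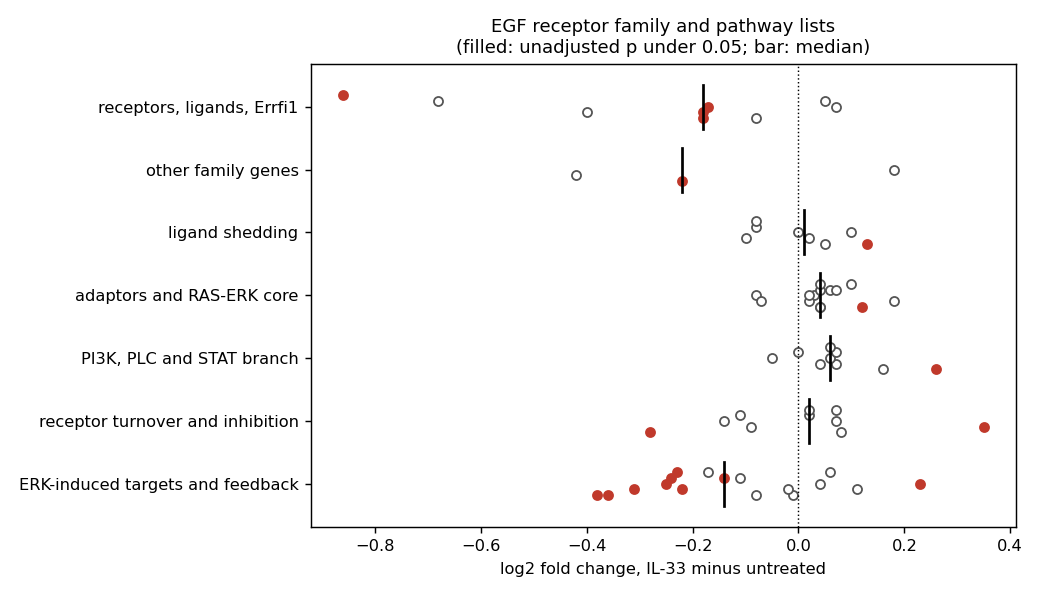
Log2 fold changes (IL-33 minus untreated, horizontal axis) of the receptors, ligands and Errfi1 (top row) and of the tested genes of 6 pathway lists. Filled points have an unadjusted edgeR p under 0.05 and bars are medians: -0.18 for the top row, 0.01 to 0.06 for the 4 middle lists of signalling parts, and -0.14 for ERK-induced genes.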

How the data were processed

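Libraries were made from total RNA with a VAHTS mRNA-seq kit, per the labels' protocols. Tools named without roles in the submitters' processing notes are StringTie 1.3.4d, HISAT2 2.1.0, DESeq2 1.18.1 and FastQC 0.11.7, with build mm10; no annotation release is named. The authors' estimated counts were deposited as whole numbers and used unrounded, and appear to be scaled: transcript counts of 4 (2209 to 2405 per library) outnumber those of 3 (1876 to 1970) and 5 (1854 to 2021). The deposited FPKM values are scaled to feature length and depth, per the file headers. Positions, transcript types and lengths are those of GENCODE M21 on GRCm38, which holds 97.2% of the deposited transcript identifiers in the same version; 49035 of 52550 gene identifiers matched a symbol. No source used here says whether counting used strand, so genes that overlap cannot be told apart: Egfros lies within Egfr, Gm19610 overlaps Ereg, and Mien1 overlaps Erbb2, each on the other strand.

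The 3 IL-33 libraries were compared with the 3 untreated libraries by edgeR 4.0.16 (R 4.3.3; quasi-likelihood, robust, TMM scaling, filterByExpr with minimum count 10), for genes and for transcripts. CPM are TMM-scaled. All 9 genes passed the filter, as did 16 of their 24 transcripts. The fit was tested on simulated counts. It called 66% of genes changed 1.5-fold, 84% at 2-fold and 100% at 4-fold (50 genes each). Only genes of higher counts were changed and no smaller fold was simulated, so recovery of smaller differences is not known. Sums and shares used exact permutation tests over libraries. All pairs of libraries differed beyond sampling noise (median chi-square 2.11 to 3.16 times its sampling value over 10737 genes). Floors cover counting error only. The labels name no batch.

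The genes, lists and rule were chosen with earlier results of these data known. Named were all 9 genes, in each list the 3 genes of lowest p (1 of these is not reported here), and transcripts with at least 5% of the FPKM of their gene. Alternatives were other scalings, filters, thresholds and tools (DESeq2 1.42.0, limma 3.58.1 with voom or on log2(FPKM + 0.1) and log2(FPKM + 1)), counts divided by 4, the replicate number as a block, and each library left out.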

Additional observations from a re-analysis of the deposited data

How the results depend on the processing

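None of the 9 genes was called under any alternative tried, and the log2 fold changes of Egfr, Erbb2, Erbb3, Areg, Ereg, Epgn and Errfi1 kept their direction in all that gave one. Leaving out 1 library moved Tgfa between -0.56 and 0.38 and Btc between -0.73 and 0.37; without untreated replicate 1 and IL-33 replicate 3 together, a choice made after seeing the data, Btc was at -0.97. Leaving out 1 library also moved the difference in ligand share between -5.27 and 9.14 percentage points for Tgfa, -0.126 and 0.116 for Btc, and -5.17 and 8.36 for Epgn. The count of all called genes, 11, was 73 with DESeq2, 17 without a filter, 6 and 4 with limma on log2(FPKM + 0.1) and log2(FPKM + 1), and 11 to 90 with 1 library left out, namely 90 when IL-33 replicate 3 was dropped, 20 for IL-33 replicate 1 and 18 for untreated replicate 3. It was 57 without that pair of libraries. Of the pathway genes DESeq2 called 2 (Epha2 and Ptgs2) and leaving out 1 library 0 to 1; edgeR also called Epha2 without a filter (adjusted p = 0.0377) and Ptgs2 without that pair of libraries (adjusted p = 0.0399). The causes were not tested. No transcript of the 9 genes was called in any fit. Same-numbered libraries showed no shared deviation from their group means (correlations 0.031, -0.005 and -0.023). That cannot settle whether they shared a culture or animal. With the number as a replicate block 8 genes were called, and 0 of the 9, of their transcripts and of the pathway genes. Low counts limit Areg, Ereg and Btc, and the spread between libraries limits Tgfa.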

Other observations

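Genes beside the family, named after their values were seen, are given as values. Egfros, transcribed from the strand opposite Egfr within it, stood at 1.23, 1.23 and 1.47 CPM with IL-33, against 2.01, 1.93 and 1.72 CPM untreated (edgeR adjusted p = 0.763). Eldr, 16996 bases beyond the end of Egfr, stood at 0.296, 0.382 and 0.498 CPM with IL-33, against 0.603, 0.846 and 0.905 CPM untreated (edgeR adjusted p = 0.763). Gm19610, which overlaps the start of Ereg on the other strand, stood at 0.364, 0.264 and 0.181 CPM with IL-33, near or below the floor, and at 0.559, 0.556 and 0.971 CPM untreated (edgeR adjusted p = 0.74). In these 3 noncoding genes all IL-33 libraries were below all untreated ones, which 6.26% of tested genes showed. Grb7, an adaptor gene beside Erbb2, stood at 29.2, 25.9 and 24.8 CPM with IL-33, against 30.2, 30.0 and 29.2 CPM untreated, and Mien1, which overlaps the end of Erbb2, at 25.6, 22.1 and 25.1 CPM with IL-33, against 20.2, 25.5 and 24.4 CPM untreated. With IL-33 replicate 3 and untreated replicate 1 apart in Tgfa, the same 2 libraries gave Ereg values of 3.81 and 3.71 CPM, the highest and the lowest of their groups.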
